A study of Mus musculus with 4 samples.

Results

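The out-of-frame T-cell receptor β (TRB) rearrangements of liver CD8+ T cells are described here. They are the 22386 listed rearrangements, of 261962 in 4 libraries, whose translated CDR3 carries a frame-break mark, which is 8.55% of all rows. The comparison class is the 238470 in-frame rearrangements with no stop codon, and a further 1106 rows were in frame but held a stop codon. Length modulo 3 and the presence of stop codons are properties of this choice. Other measures did not enter it directly, but the in-frame class excludes stop codons, so the usage and trimming of a segment whose joints often hold one, TRBV4 here, are partly set by the choice of rows.

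Cells were DAPI-negative, CD45+, CD3+ and CD8+ when sorted from livers carrying MC38 metastases; MC38 is a colon adenocarcinoma line of the mouse, though the labels call it a melanoma. Tumour cells had been injected 14 days earlier into wild-type mice or into mice without Vsig4, which encodes a complement receptor of tissue macrophages such as Kupffer cells. Each genotype had 2 libraries, called wild-type 1 and 2 and Vsig4-deficient 1 and 2. No strain, age, source of the knockout or number of animals per library is given in the sources used here, so p-values measure the spread between these samples, which may be technical. The tables hold receptor rearrangements only, and neither the cell type nor the genotype could be checked against marker transcripts.

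Each developing T cell cuts and joins 1 V, 1 D and 1 J segment of the TRB locus, and bases are trimmed from the segment ends and added without template at the joints. A joint that breaks the reading frame makes no receptor chain, and the cell may then rearrange its other chromosome. A T cell that carries a failed joint was selected in the thymus through the receptor from the other allele, which is why out-of-frame joints are used in the field as a picture of recombination before selection. In RNA such joints are reduced further by nonsense-mediated decay, which degrades transcripts with premature stops.

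The largest out-of-frame clonotype of each library shows what a broken joint looks like. Each sequence runs from the first to the last codon of CDR3, 5′ to 3′ on the coding strand of the transcript. Capitals mark bases that the deposited alignment assigns to no V, D or J segment, in other words inserted bases.

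wild-type 1, TRBV3 TRBD1 TRBJ2-1: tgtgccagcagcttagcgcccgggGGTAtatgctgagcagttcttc

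wild-type 2, TRBV31 TRBD1 TRBJ2-1: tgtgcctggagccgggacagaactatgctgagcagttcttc

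Vsig4-deficient 1, TRBV13-2 TRBD2 TRBJ2-7: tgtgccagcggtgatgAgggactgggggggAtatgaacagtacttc

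Vsig4-deficient 2, TRBV1 TRBD2 TRBJ1-5: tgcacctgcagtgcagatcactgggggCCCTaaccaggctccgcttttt

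The first joint had 46 bases, 4 of them inserted and none trimmed from V, and held 2054 counts. The TRBV31 joint of wild-type 2 had 41 bases and no inserted base, with 2 bases trimmed from V and 1 from J, and held 1640 counts. The joints of Vsig4-deficient 1 (46 bases, 2 inserted) and Vsig4-deficient 2 (49 bases, 4 inserted) held 2149 and 1104 counts. None of these lengths is a multiple of 3. The next largest joints used TRBV13-1 with TRBD1 and TRBJ2-7 (862 counts, wild-type 1), TRBV13-1 with TRBJ2-5 and no D (394, wild-type 2), TRBV31 with TRBD2 and TRBJ2-2 (1495, Vsig4-deficient 1) and TRBV12-1 with TRBD2 and TRBJ2-5 (1059, Vsig4-deficient 2).

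Out-of-frame joints numbered 4778, 7693, 4993 and 4922 in wild-type 1, wild-type 2, Vsig4-deficient 1 and Vsig4-deficient 2, the order in which values of all 4 libraries are given throughout. They were 9.09%, 9.40%, 9.56% and 6.54% of the listed clonotypes. Vsig4-deficient 2 was the low library, and drawing every library to 901567 counts left it low, at 6.41% against 9.08%, 9.40% and 9.51%. Both wrong frames were filled about alike: lengths 1 base past a whole codon numbered 2433, 3856, 2530 and 2493, and lengths 2 bases past numbered 2345, 3837, 2463 and 2429. Between 7.74% and 8.46% of out-of-frame rows also held a stop codon within CDR3. Library totals were 901567 to 1269480 counts.

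Segment usage was compared as the share of clonotypes in each class, each clonotype counted once whatever its counts. The TRB locus lies on chromosome 6, and all 38 listed V and J segments were placed on the RefSeq annotation of GRCm38.p6. Of 24 tested V segments, 15 passed an adjusted p of 0.05 between the classes (62.5%), with 8 more used (33.3%) and 7 less used (29.2%) out of frame. Here and below, tests of segments are edgeR quasi-likelihood tests with Benjamini-Hochberg adjustment within the V or J family, and errors of log2 ratios are the SE that the test's own p implies.

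TRBV31 had the firmest difference. This segment (chr6:41557693-41558371) lies beyond the J and constant segments in the opposite orientation and joins by inversion. It made up 11.8%, 12.8%, 12.1% and 16.0% of out-of-frame clonotypes, against 3.13%, 3.27%, 3.26% and 3.26% of in-frame clonotypes. Every out-of-frame share lay above every in-frame share, and Vsig4-deficient 2 was the highest. The usage ratio was 4.06 (log2 2.02 ± 0.05, adjusted p = 1.4e-47, edgeR). Put the other way, 27.4%, 28.9%, 28.2% and 25.6% of TRBV31 clonotypes were out of frame, against a mean of 8.68% over all segments. The SE and p of the usage ratio draw on the spread of all V segments, not of TRBV31 alone. The size of such a p depends on the fit. With 1 library left out, the smallest adjusted p of any V segment ranged from 5.5e-32 to 3.3e-10 (edgeR). With no library block it was 6.7e-12 (edgeR). TRBV31 was the most used V segment among out-of-frame clonotypes on average (13.1%), with TRBV13-2 next at 12.8%, and these 2 did not separate over the libraries.

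**Figure D1:**
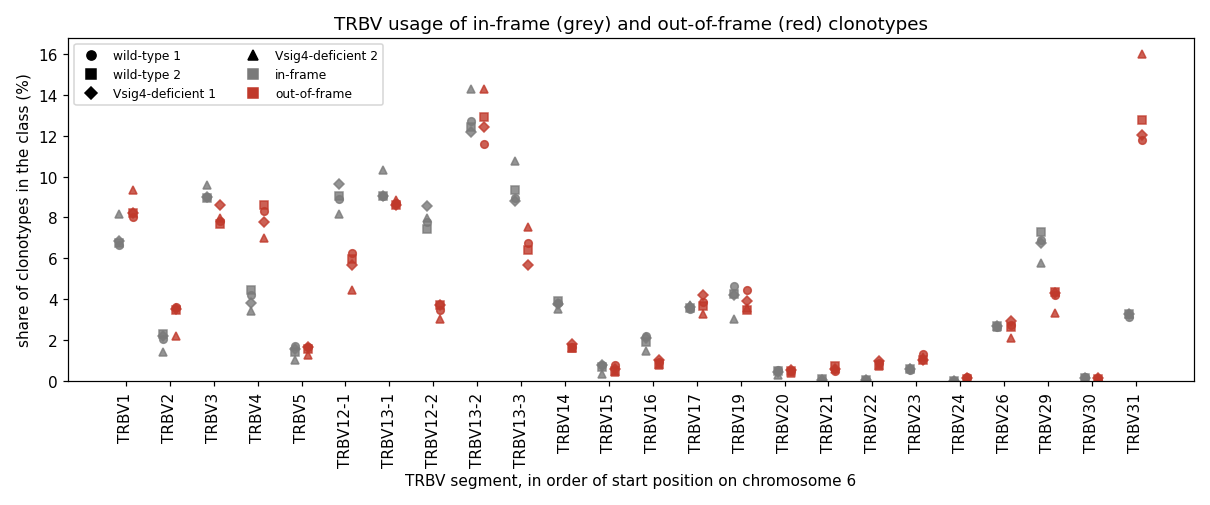
Share of clonotypes (%) that used each tested TRBV segment, with segments in order of start position; grey points are in-frame and red points out-of-frame clonotypes, and each marker shape is 1 library. TRBV31, at the right, sits at 11.8% to 16.0% out of frame and 3.13% to 3.27% in frame, and TRBV14, TRBV12-1 and TRBV12-2 lie lower out of frame in all 4 libraries.

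Among rarely used segments, TRBV21, TRBV22 and TRBV24 had nearly as many failed as in-frame joints, or more. TRBV22 (chr6:41212075-41212534), which RefSeq lists as a pseudogene, took 0.879%, 0.767%, 0.981% and 0.711% of out-of-frame clonotypes and 0.0400%, 0.0352%, 0.0276% and 0.0200% of in-frame clonotypes. It had 185 out-of-frame and 72 in-frame clonotypes, or 2.57 failed joints per in-frame joint, where all segments together had 0.0939. TRBV24 had 29 and 9 clonotypes (3.22 per in-frame joint), and TRBV21 had 135 and 144 (0.938). The log2 ratios of usage were 4.73 ± 0.19 for TRBV22, 4.91 ± 0.38 for TRBV24 and 3.28 ± 0.19 for TRBV21, with adjusted p of 1.1e-35, 1.3e-19 and 3.2e-26 (edgeR). The TRBV24 value rests on few clonotypes, and its in-frame share was at most 0.00638% in any library. RefSeq lists TRBV21 and TRBV24 as ordinary V segments. The out-of-frame clonotype with the most counts of each is shown, with inserted bases in capitals.

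TRBV22 TRBD1 TRBJ1-3: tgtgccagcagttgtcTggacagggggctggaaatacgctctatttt

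TRBV24 TRBD1 TRBJ2-5: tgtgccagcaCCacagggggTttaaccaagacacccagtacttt

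TRBV21 TRBD2 TRBJ2-7: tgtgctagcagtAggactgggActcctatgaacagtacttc

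They held 24, 5 and 129 counts, each in 1 library. Of the other segments that RefSeq lists as pseudogenes, TRBV29 went the other way, and TRBV8 and TRBV28 could not be tested. TRBV29 (chr6:41271403-41271881), also a pseudogene in that annotation, made up 4.21%, 4.34%, 4.29% and 3.31% of out-of-frame against 6.90%, 7.28%, 6.74% and 5.79% of in-frame clonotypes. It was thus lower out of frame (log2 -0.73 ± 0.06, adjusted p = 2.2e-17, edgeR), with 15879 in-frame clonotypes. TRBV8 and TRBV28 had 7 and 1 in-frame clonotypes and no out-of-frame clonotype, too few to test.

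TRBV23, TRBV2 and TRBV1 were also used more out of frame. TRBV23 held 1.32%, 1.03%, 1.04% and 1.18% of out-of-frame and 0.534% to 0.640% of in-frame clonotypes (log2 0.95 ± 0.13, adjusted p = 4.8e-10, edgeR). TRBV2 held 3.60%, 3.48%, 3.52% and 2.17% against 2.05%, 2.30%, 2.22% and 1.39% (log2 0.68 ± 0.08), so that Vsig4-deficient 2 was low in both classes. TRBV1 (chr6:40891296-40891885), at the far end of the locus from TRBV31, held 8.04%, 8.23%, 8.23% and 9.33% against 6.66%, 6.73%, 6.85% and 8.17%. Its log2 ratio was 0.25 ± 0.05 (adjusted p = 1.6e-05, edgeR), and weighting by counts in place of clonotypes took it to 0.02 with no call.

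The 7 segments used less by failed joints were led by TRBV14 and TRBV12-2. TRBV14 (chr6:41135167-41135616) held 1.63%, 1.59%, 1.80% and 1.61% of out-of-frame against 3.83%, 3.91%, 3.75% and 3.54% of in-frame clonotypes (log2 -1.19 ± 0.09, adjusted p = 9.7e-21, edgeR). TRBV12-2, 1 of the pair of segments known as Vβ5, held 3.47%, 3.69%, 3.73% and 3.03% against 7.77%, 7.44%, 8.54% and 7.97% (log2 -1.18 ± 0.06). Its partner TRBV12-1 held 6.24%, 5.98%, 5.65% and 4.47% against 8.92%, 9.03%, 9.66% and 8.15% (log2 -0.68 ± 0.06). Both Vβ5 segments were lower out of frame, and together they made up 9.71%, 9.67%, 9.37% and 7.50% of out-of-frame and 16.7%, 16.5%, 18.2% and 16.1% of in-frame clonotypes. The median log2 ratio of the pair was -0.93, against -0.03 over all 24 tested V segments. TRBV16 (log2 -1.10 ± 0.12), TRBV13-3 (-0.53 ± 0.05) and TRBV3 (-0.19 ± 0.05) were the remaining lower segments. Weighting by counts ended the calls of TRBV12-1 (log2 -0.16), TRBV16 (-0.29) and TRBV3 (-0.06), and it took TRBV13-3 to -1.22 and TRBV2 to 1.40; the split was then 10 higher and 4 lower.

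The 3 segments of the Vβ8 family, TRBV13-1, TRBV13-2 and TRBV13-3, were not alike. TRBV13-2 held 11.6%, 12.9%, 12.4% and 14.3% of out-of-frame and 12.7%, 12.4%, 12.2% and 14.3% of in-frame clonotypes, and the classes overlapped (log2 -0.01 ± 0.04, adjusted p = 0.81, edgeR). TRBV13-1 held 8.59% to 8.86% against 9.03% to 10.3% (log2 -0.11 ± 0.05, adjusted p = 0.059). Only TRBV13-3 of the 3 passed the test, in the lower direction, and the family's median log2 ratio was -0.11. Shares within a class sum to a whole, so the excess of TRBV31 lowers every other out-of-frame share. With TRBV31 left out of both classes, TRBV13-2 became higher out of frame (log2 0.15), TRBV3 was no longer called (-0.03) and TRBV1 reached 0.41; 16 of 23 segments were then called, 10 of them higher.

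**Figure D2:**
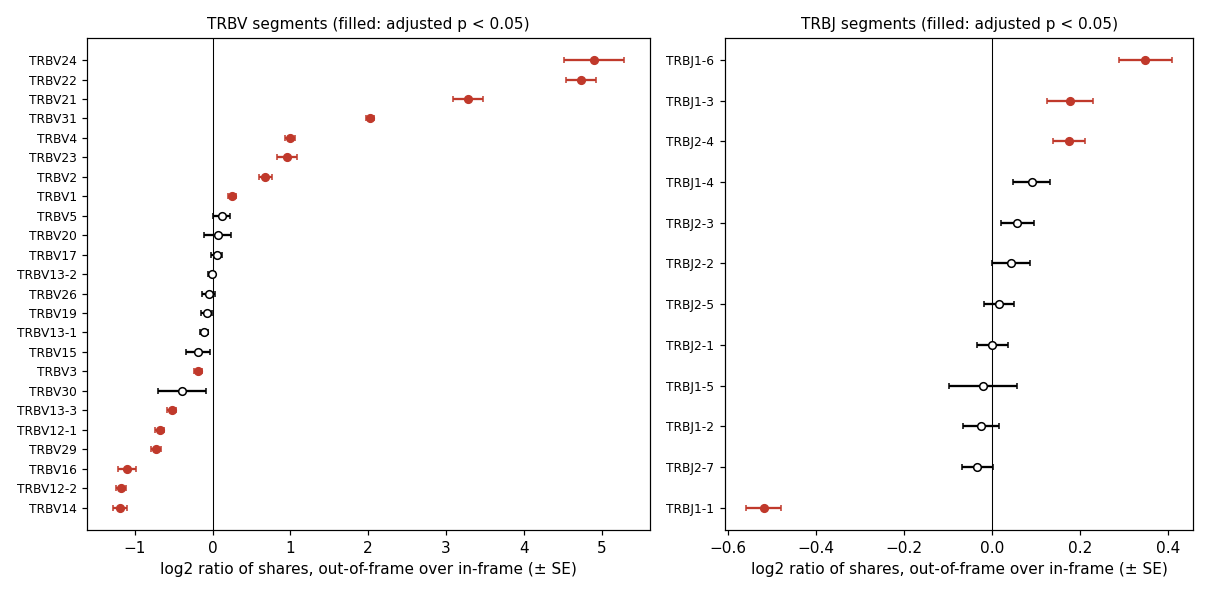
Log2 ratio of usage, out-of-frame over in-frame, for each tested TRBV (left) and TRBJ (right) segment; bars are the SE that the edgeR test implies over 4 libraries, and filled red points passed an adjusted p of 0.05. V ratios run from -1.19 (TRBV14) to 4.91 (TRBV24), and J ratios only from -0.52 (TRBJ1-1) to 0.35 (TRBJ1-6).

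TRBV4 was used more by failed joints as well, and most of this excess lay in joints that kept a stop codon of the segment itself. It held 8.33%, 8.59%, 7.79% and 6.99% of out-of-frame against 4.21%, 4.47%, 3.82% and 3.40% of in-frame clonotypes (log2 0.99 ± 0.06, adjusted p = 5.7e-26, edgeR). TRBV4 joints with little trimming read the stop codon TAA at bases 13 to 15 of CDR3, the fifth codon, and no joint that kept it was trimmed by over 2 bases of V. A TRBV4 joint that keeps this stop is counted as out-of-frame when its length breaks the frame and as a stop-codon row when it does not, and so can never be in the in-frame class. The TRBV4 joint with the most counts among out-of-frame clonotypes that kept the stop is shown with TAA in capitals.

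wild-type 1, TRBV4 TRBJ2-7: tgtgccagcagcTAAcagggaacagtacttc

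It had 31 bases, 2 bases trimmed from V and 56 counts. The stop was present in 45.2%, 41.5%, 41.1% and 39.8% of out-of-frame TRBV4 clonotypes. It was present in 82.3%, 88.1%, 87.0% and 83.8% of TRBV4 clonotypes in the stop-codon class, and in 0 of the in-frame class, which the choice of rows sets. Bases trimmed from TRBV4 averaged 3.09 ± 0.0819 (SD, n = 4) out of frame, 4.65 ± 0.0450 (SD, n = 4) in frame and 1.18 ± 0.0547 (SD, n = 4) in the stop-codon class. With the out-of-frame rows that hold a stop left out, which treats both classes alike, the TRBV4 log2 ratio was 0.16 and still passed the test, while that of TRBV31 was 2.07.

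**Figure D3:**
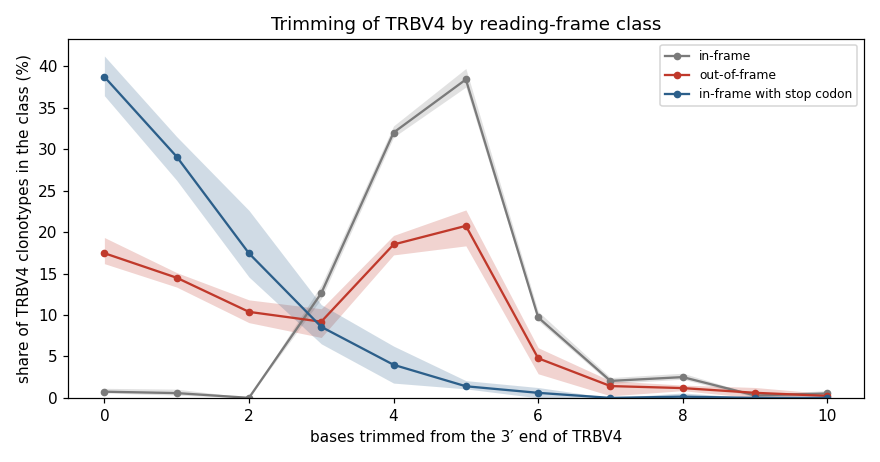
Share of TRBV4 clonotypes (%) by the number of bases trimmed from the V segment, in the in-frame (grey), out-of-frame (red) and in-frame with stop codon (blue) classes; lines are means over 4 libraries and bands their range. Joints trimmed by under 3 bases are nearly missing in frame (1.34% ± 0.356 of the class, SD, n = 4), while they make up 42.3% ± 2.14 (SD, n = 4) of the out-of-frame class.

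J segments, which encode the end of CDR3, differed less. Of 12 tested, 4 passed (33.3%), with 3 higher (25%) and 1 lower (8.33%) out of frame, and the median log2 ratio was 0.03. TRBJ1-1 (chr6:41533864-41533911), the first J segment of the first cluster, held 6.55%, 7.12%, 6.49% and 6.40% of out-of-frame against 9.30%, 9.75%, 9.89% and 9.31% of in-frame clonotypes. The classes did not overlap (log2 -0.52 ± 0.04, adjusted p = 4.2e-14, edgeR). TRBJ1-6, the last of that cluster, held 3.43%, 3.37%, 4.21% and 4.63% against 2.94%, 2.88%, 3.04% and 3.32% (log2 0.35 ± 0.06, adjusted p = 9.8e-06). TRBJ2-4 held 10.6%, 9.91%, 8.97% and 9.77% against 8.59% to 8.87% (log2 0.17 ± 0.04). TRBJ1-3 had a log2 ratio of 0.18 ± 0.05 (adjusted p = 0.0059), and its call was lost under 3 settings and without any of wild-type 2, Vsig4-deficient 1 or Vsig4-deficient 2 (log2 0.14 to 0.17). By counts none of these 4 was called, TRBJ1-1 was at -0.17 and TRBJ2-4 at -0.12, and only TRBJ1-4 passed (0.41).

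By J cluster, 2 of the 6 segments of cluster 1 were higher and 1 lower, and 1 of the 6 of cluster 2 was higher. The 5 J segments most used out of frame were TRBJ2-7, TRBJ2-1, TRBJ2-5, TRBJ2-4 and TRBJ2-3. Of these, TRBJ2-7 (18.4% to 20.2% out of frame, 18.4% to 19.9% in frame), TRBJ2-1 (13.9% to 14.8%, 13.7% to 15.2%), TRBJ2-5 (11.6% to 13.1%, 12.0% to 12.2%) and TRBJ2-3 (7.82% to 9.17%, 7.82% to 8.66%) overlapped between the classes.

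TRBJ1-1 usage was compared further between TRBV31 and the other V segments. With other V segments, TRBJ1-1 was used by 5.98% ± 0.365 of out-of-frame and 9.50% ± 0.317 of in-frame clonotypes (SD, n = 4). With TRBV31 it was used by 10.9% ± 1.25 and 11.4% ± 0.690 (SD, n = 4). The out-of-frame minus in-frame difference was -3.53 ± 0.301 points with other V segments and -0.41 ± 1.78 points (SD, n = 4) with TRBV31, within the spread. With TRBV31 the difference was -1.17, 2.13, -1.96 and -0.65 points, negative in 3 of 4 libraries, and without wild-type 2 it averaged -1.26 ± 0.658 points (SD, n = 3). The gap between the TRBV31 difference and that of other V segments was positive in 4 of 4 libraries (3.12 ± 1.70 points, SD, n = 4), and 2.31 points without wild-type 2. The two-sided exact sign-flip permutation test gave p = 0.125, the smallest that 4 paired libraries allow, so no such test here can pass 0.05. This contrast was chosen after the values were seen.

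Failed joints were longer on average and more varied in length. Mean CDR3 length was 42.2, 42.2, 42.1 and 42.2 bases out of frame and 41.8, 41.8, 41.8 and 41.9 bases in frame, a difference of 0.357 ± 0.0701 bases (SD, n = 4) that was positive in 4 of 4 libraries. The SD of length was 4.96, 5.07, 5.18 and 5.21 bases out of frame against 4.39, 4.42, 4.46 and 4.38 in frame, higher by 0.693 ± 0.107 bases (SD, n = 4) with no overlap. Giving the in-frame clonotypes the V and J mix of the out-of-frame ones left a difference in mean length of 0.225 bases. Of the 16 named V segments with at least 100 out-of-frame clonotypes, 11 had a positive mean difference, 8 of them in all 4 libraries. These 16 were mostly named for a difference in usage between the classes. TRBV5, TRBV15, TRBV17, TRBV19, TRBV20 and TRBV26 also had at least 100 out-of-frame clonotypes and were not counted. TRBV23 joints were shorter out of frame in all 4 libraries (-0.502 bases). The p over 4 paired libraries was 0.125 for length and for its SD (exact sign-flip test), 0.167 after adjustment over 8 properties.

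Failed joints also held more untemplated bases. In clonotypes with a D segment, which made up 76.3% to 76.9% of out-of-frame and 76.2% to 76.3% of in-frame clonotypes, the V-D and D-J joints together held 3.21, 3.17, 3.20 and 3.17 inserted bases out of frame. In-frame joints held 2.75, 2.76, 2.79 and 2.77. The difference of 0.421 ± 0.0326 bases (SD, n = 4) was positive in 4 of 4 libraries and exceeded the spread (exact sign-flip p = 0.125, adjusted 0.167). It was 0.348 with the V and J mix matched. It was positive in 14 of the 16 named V segments that had at least 100 out-of-frame clonotypes, 11 of them in all 4 libraries. TRBV4 (-0.0221 bases) and TRBV22 (-0.181 bases) were the exceptions, and TRBV29 (0.756 bases) had the largest difference of the 16. As for length, other V segments with at least 100 out-of-frame clonotypes were not counted. Joints with no inserted base were 12.2% to 13.9% of out-of-frame and 14.6% to 15.2% of in-frame clonotypes, and joints with at least 6 were 14.9% to 16.0% against 10.9% to 11.2%.

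**Figure D4:**
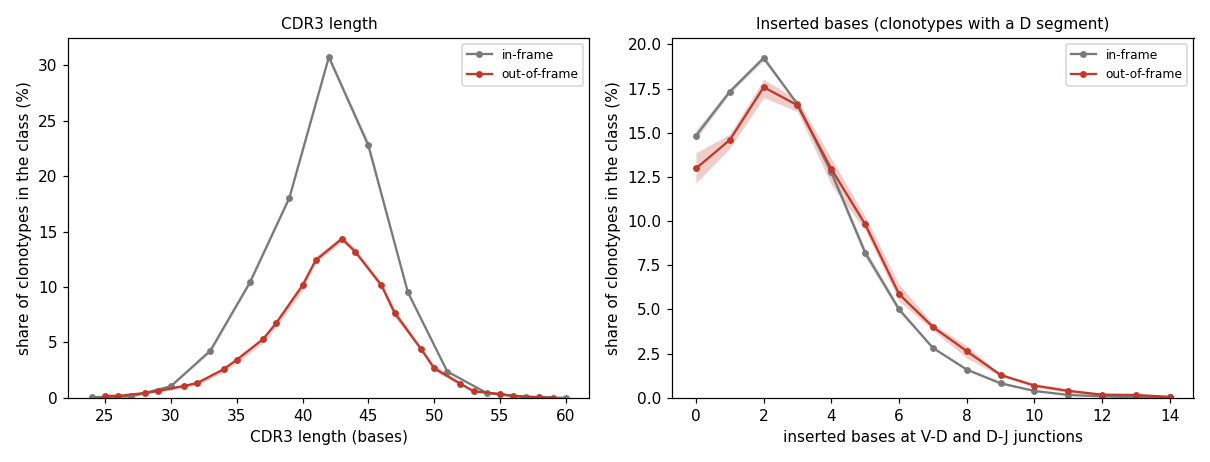
CDR3 length in bases (left) and inserted bases at the V-D and D-J joints of clonotypes with a D segment (right), as the share of clonotypes (%) in each class; lines are means over 4 libraries and bands their range. In-frame lengths fall only on multiples of 3 and out-of-frame lengths on the other values, so heights at left are not comparable between classes, while at right out-of-frame joints (red) lie below in-frame joints (grey) at 0 to 2 bases and above them from 5 to 14 bases.

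The make-up of the inserted bases differed too. At the V-D joint, C made up 35.9%, 37.0%, 36.7% and 36.0% of inserted bases out of frame and 39.8%, 39.9%, 40.0% and 39.1% in frame. At the D-J joint, G made up 38.3%, 36.2%, 36.9% and 37.2% out of frame and 34.5%, 34.3%, 34.3% and 34.4% in frame, while T was 18.7% to 19.7% against 21.7% to 22.2%. The classes did not overlap for any of these 3 bases, which were singled out after their values were seen.

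Trimming differed little. Out-of-frame joints lost 2.51, 2.45, 2.50 and 2.40 bases of V against 2.50, 2.54, 2.50 and 2.50 in frame, a difference of -0.0444 ± 0.0561 bases (SD, n = 4) that was positive in 2 of 4 libraries. The difference was -0.0499 ± 0.0149 bases for D (0 of 4 positive) and 0.0524 ± 0.0469 bases for J (3 of 4 positive). The small mean for V hides opposite parts: trimming was lower out of frame in all 4 libraries for TRBV4 (by 1.57 bases) and TRBV22 (-0.918 bases, 185 clonotypes), and it was 0.439, 0.393, 0.300, 0.296 and 0.277 bases higher for TRBV2, TRBV13-1, TRBV12-1, TRBV13-3 and TRBV13-2. Those 5 segments were higher in all 4 libraries.

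Transcripts of failed joints were scarce. Out-of-frame clonotypes took 4.38% (95% Wilson interval 4.34% to 4.43%), 4.76% (4.71% to 4.80%), 4.12% (4.09% to 4.16%) and 3.21% (3.18% to 3.24%) of counts, intervals that cover counting error only. They had 8.41, 5.57, 8.26 and 8.28 counts per clonotype, against 18.4, 11.6, 20.4 and 17.5 in frame. The ratio of the means was 0.453 (log2 -1.14 ± 0.11, SD, n = 4; exact sign-flip p = 0.125, adjusted 0.167), and it was below 1 in 4 of 4 libraries. The median clonotype had 3, 3, 3 and 2 counts out of frame and 7, 6, 5 and 3 in frame, lower out of frame in all 4 libraries. Clonotypes with a single count made up 27.9%, 27.5%, 26.1% and 38.0% of out-of-frame and 21.4%, 17.6%, 20.9% and 33.0% of in-frame clonotypes.

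In-frame clonotypes with a stop codon were scarcer still, at 3.97, 3.12, 3.39 and 3.22 counts per clonotype and a largest clonotype of 39 to 64 counts. TRBV4 made up 39.1% of that class on average, against 7.93% of out-of-frame clonotypes. Out-of-frame TRBV4 clonotypes averaged 3.73, 2.58, 3.85 and 2.77 counts. The part of this V make-up in the low counts of the stop-codon class was not tested. Among V segments, the median out-of-frame clonotype of TRBV31 had 6 counts against 8 in frame, that of TRBV13-2 had 5 against 10, and that of TRBV12-2 had 2 against 4. Fewer cells and less RNA per cell cannot be told apart in these libraries. A lowest base quality under 37 was found in 3.75% to 4.53% of out-of-frame and 2.09% to 3.34% of in-frame clonotypes. Rows that could be copies of a clonotype with at least 20 times their counts through 1 lost or gained base made up 0.467% to 0.879% of out-of-frame clonotypes, and the ratio was -1.14 on the log2 scale without them. With no cut on counts, 11.8%, 12.5%, 9.65% and 11.7% of out-of-frame clonotypes lay 1 lost or gained base from an in-frame clonotype. Those neighbours had the same V and J in the same library. How many of these rows are copies was not tested.

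**Figure D5:**
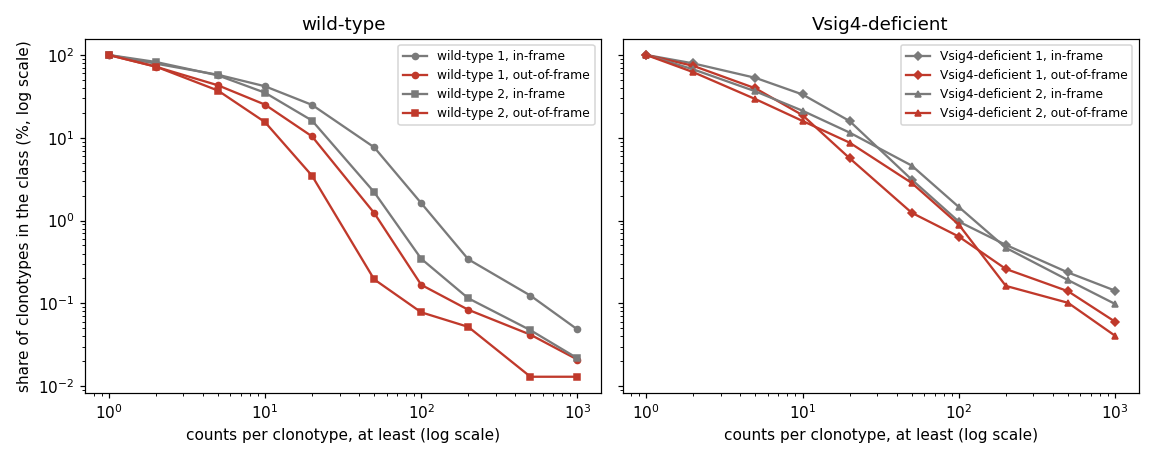
Share of clonotypes (%, log scale) with at least the number of counts on the horizontal axis (log scale), for wild-type (left) and Vsig4-deficient (right) libraries; grey lines are in-frame and red lines out-of-frame clonotypes. In each library the red line lies below the grey line from 2 counts to 1000 counts, and the largest out-of-frame clonotypes held 2054, 1640, 2149 and 1104 counts.

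Failed joints were mostly private to a library, as were in-frame joints. Of 21397 distinct out-of-frame clonotypes, 20475 occurred once among the libraries (95.7%, against 90.5% in frame), 867 were found in 2, 43 in 3 and 12 in all 4. The share of a library's out-of-frame clonotypes found in any other library was 7.70%, 5.90%, 9.41% and 12.6%, against 19.4%, 15.4%, 20.9% and 18.9% in frame. For clonotypes with 1, 2 to 5, 6 to 20 and above 20 counts, it averaged 11.6%, 6.33%, 6.91% and 18.8% out of frame. In frame the averages were 22.2%, 14.8%, 14.5% and 26.9%. These averages hide differences between libraries. Out of frame, the values were 15.2%, 3.40%, 8.51% and 19.2% at 1 count, and 6.58%, 23.0%, 38.5% and 7.13% above 20 counts. In both classes, sharing was higher above 20 counts than at 1 count only in wild-type 2 and Vsig4-deficient 1. The classes were not matched for their number of clonotypes. Sharing ran higher within a genotype, where 3.52% to 8.21% of out-of-frame clonotypes were found in the other library, than across genotypes (0.871% to 3.45%). The same held in frame (8.13% to 15.3% and 3.80% to 7.57%). These pairs share libraries and were not tested.

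Some of the shared rows were large clonotypes of 1 library listed at a few counts in others. The TRBV3 joint above had 2054 counts in wild-type 1 and 26, 0 and 1 in the other libraries, and the TRBV31 joint had 1640 in wild-type 2 and 6, 2 and 2 elsewhere. Leaving out rows under 5% of their share elsewhere lowered the mean share found in another library from 8.90% to 7.09%, and leaving out single counts lowered it to 4.24%. Whether such rows passed between libraries was not tested. Of the 5 joints with the highest lowest share among those found in all 4 libraries, 3 are shown, with insertions again in capitals; the others were the TRBV31 joint above and a TRBV13-3 joint with 4 inserted bases.

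TRBV13-2 TRBD2 TRBJ2-7: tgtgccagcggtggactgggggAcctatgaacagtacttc

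TRBV1 TRBD1 TRBJ2-7: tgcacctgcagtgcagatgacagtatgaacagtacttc

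TRBV26 TRBJ1-4: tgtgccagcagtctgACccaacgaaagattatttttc

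The first had 6, 37, 40 and 99 counts, the second 3, 26, 19 and 33, and the third 3, 2, 3 and 2, so that none of the 3 was large in any library. The 8 of these 12 joints with a D segment averaged 1.38 inserted bases, against 3.18 over all distinct out-of-frame clonotypes with a D segment. Sharing across genotypes went with fewer inserted bases in frame in every library (1.65 to 2.02 against 2.86 to 2.91 for clonotypes of 1 library). Out of frame the values were 2.94, 3.37, 2.84 and 3.37 against 3.23, 3.16, 3.20 and 3.15, lower in wild-type 1 and Vsig4-deficient 1 and higher in the other two.

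By genotype, no difference in the V usage of failed joints passed the test with all libraries, though shares of some segments did not overlap. TRBV4, for example, was at 8.33% and 8.59% in wild-type against 7.79% and 6.99% in Vsig4-deficient libraries. TRBV3 was at 7.83% and 7.68% against 8.59% and 7.98%. None of 24 V segments was called (0%) between Vsig4-deficient and wild-type libraries (edgeR; 0 at an unadjusted p under 0.05; DESeq2 also called 0), and the smallest adjusted p was 0.915. Without Vsig4-deficient 1, 3 segments were called, TRBV31 (log2 0.37) higher and TRBV2 (-0.70) and TRBV12-1 (-0.44) lower in the remaining Vsig4-deficient library. That fit sets 1 library, Vsig4-deficient 2, against 2, takes the spread from the wild-type libraries and assumes that the lone library varies like them. TRBV31 made up 12.3% ± 0.685 of wild-type and 14.0% ± 2.78 of Vsig4-deficient out-of-frame clonotypes (SD, n = 2), and the spread comes from 12.1% and 16.0% in the Vsig4-deficient libraries. On simulated data with 2-fold changes this test found 75% of changed V segments, and with 1.5-fold changes 38.8%.

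Among J segments 1 of 12 was called (8.33%). TRBJ1-6 was used by 4.21% and 4.63% of Vsig4-deficient out-of-frame clonotypes, against 3.43% and 3.37% of wild-type ones, with no overlap (log2 0.38 ± 0.11, adjusted p = 0.018, edgeR). The call was lost with DESeq2 (log2 0.36), with single counts left out (0.31), by counts (0.63), without rows holding a stop codon (0.28), without TRBV31 (0.37), and without wild-type 1 (0.39), wild-type 2 (0.36) or Vsig4-deficient 2 (0.31), always in the same direction. In frame, TRBJ1-6 was at 3.04% and 3.32% against 2.94% and 2.88%, and the difference between the classes did not pass (interaction log2 0.25, adjusted p = 0.19, edgeR). No V or J segment passed the interaction of class and genotype (0% of 24 and 0% of 12; edgeR, 1 of each family at an unadjusted p under 0.05; DESeq2 also called 0 of each). Without Vsig4-deficient 1, TRBV31 passed (log2 0.35), again with the spread taken from the wild-type libraries alone.

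Of 10 junction and abundance properties of failed joints, 4 separated the genotypes without overlap, each at an exact permutation p of 0.333, the smallest that 2 against 2 libraries allow (0.833 adjusted over the 10). Mean length was 42.2 ± 0.0168 bases for wild-type against 42.1 ± 0.0442 bases for Vsig4-deficient libraries, and the SD of length 5.01 ± 0.0746 against 5.20 ± 0.0186 bases (SD, n = 2). Trimming of J was 2.85 ± 0.0180 and 2.93 ± 0.0271 bases (SD, n = 2). Inserted bases differed by less than the spread, at 3.19 ± 0.0321 and 3.18 ± 0.0216 bases (SD, n = 2).

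The share of counts in failed joints turned direction when large clones were left out. Wild-type libraries averaged 4.57% ± 0.263 and Vsig4-deficient libraries 3.67% ± 0.646 (SD, n = 2). The largest in-frame clonotype alone took 2.98%, 2.03%, 5.24% and 16.0% of counts. With every clonotype above 0.1% of its library's counts left out, the share was 4.69%, 4.89%, 6.07% and 5.13%, the 2 Vsig4-deficient values being the higher ones (exact permutation p = 0.333). Large clonotypes are in the denominator of this share. The cut also took 1, 1, 3 and 0 out-of-frame clonotypes out of its numerator. The source of the change between these values was not tested.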

How the data were processed

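TRB clonotypes of RNA from 4 sorted liver CD8+ T-cell samples were deposited as 1 table per library. Per the file headers, the deposited count is the clone count of a CDR3 nucleotide sequence and its V, D and J hits. It is a whole, unnormalized number of reads or of molecules (which of them is not stated in these sources). The deposited clone fraction was used only to check the counts. The deposited quality score is the lowest base quality in CDR3. The submitters' processing notes name the build mm10. The assembling program and any filters: not given in the sources used here. Trimming and inserted bases were read from the deposited alignment reference points.

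A clonotype was a CDR3 nucleotide sequence with its first V and J segment. Clonotypes per segment were tested with edgeR 4.0.16 in R 4.3.3 (quasi-likelihood, offsets from class totals, at least 10 clonotypes over the columns, Benjamini-Hochberg adjustment, threshold 0.05), with the library as a block between classes. DESeq2 1.42.0 was an alternative. Single values used two-sided exact sign-flip or permutation tests. Python 3.11.15, numpy 2.4.6, pandas 2.3.3, SciPy 1.17.1 and matplotlib 3.10.9 were used.

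On simulated clonotype numbers, edgeR found 82.5% of 1.5-fold and 86.9% of 2-fold changes between classes for V (24 segments), 100% of both for J (12 segments), 98.1% and 99.4% between genotypes for J, 43.1% and 82.5% for the V interaction, and 97.5% and 99.4% for the J interaction.

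Members, lists and tests were chosen with earlier results of these data known. The rule for names took each segment past the threshold, the 5 most used of each family, the members of the Vβ8, Vβ5, locus-end, pseudogene and J-cluster lists, the 2 largest out-of-frame clonotypes of each library and 5 found in all libraries. Settings without TRBV31, without clonotypes trimmed by 10 or more V bases, without clonotypes above 0.1% of counts, and the crossed pairing were added after the data were seen.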

Additional observations from a re-analysis of the deposited data

Results flagged for a closer look

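TRBJ1-5 had small class differences of opposite sign in the 2 genotypes, on 105, 172, 146 and 128 out-of-frame clonotypes. Its out-of-frame share lay below its in-frame share in both wild-type libraries (2.20% against 2.33%, and 2.24% against 2.42%) and above it in both Vsig4-deficient libraries (2.92% against 2.79%, and 2.60% against 2.48%). The difference between the genotypes was 0.17 on the log2 scale, and its test did not pass (edgeR interaction, adjusted p = 0.46).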

How the results depend on the processing

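The V calls between classes kept their number within 1.5 times under every setting run (14 to 16 called), but not always the same segments. By counts, TRBV1, TRBV3, TRBV12-1 and TRBV16 were no longer called. TRBV5 (log2 0.97), TRBV15 (0.75) and TRBV20 (1.06) were then called as higher out of frame. Over the main comparisons 173 alternative values stayed the same by the rule of their kind, 14 moved and 2 reversed. For a property compared between classes, the same meant the same direction. For the out-of-frame share it meant a mean within the SD between libraries. For a number of called segments it meant a number within 1.5 times, not the same segments. By counts, the number of J segments called between classes was 1, trimming of J turned to -0.0348 bases and TRBJ2-4 to -0.12 (log2); with the V and J mix matched, trimming of V turned to 0.0182 bases; without TRBV31, TRBV13-2 turned to 0.15 (log2). The J count between genotypes was 0 with DESeq2, with single counts left out, by counts, without stop-codon rows, without TRBV31, and with the replicate number as a block; it ranged from 0 to 1 with each library left out. The corresponding V count ranged from 0 to 3 and the V interaction count from 0 to 1. The mean share of out-of-frame clonotypes found in another library was 4.24% without single counts. The cause of these changes was not tested. The labels give replicate numbers without saying that they pair samples; deviations of same-numbered samples correlated at 0.441 for V and -0.103 for J, the crossed replicate block called 0 J segments between genotypes and 0 in the interaction, and the block changed no other call. With 2 libraries a genotype, exact tests cannot pass 0.05, and clonotypes of 1 count limit sharing and the rare segments.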
